A study of Mus musculus with 18 samples.

Results

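The transcriptional response to halofuginone was described in mouse CD8+ T cells whose Atf4 gene had been targeted with CRISPR/Cas9. The members were 6 RNA-sequencing libraries of a series of 18: 3 of Atf4 knockout (KO) cells cultured with halofuginone and 3 of Atf4 KO cells cultured without it, chosen by their labels. Both groups were primary cells from spleen and lymph node, were cultured for 24 h, and carried the same targeting, so that the drug was the labelled difference between them. For the places where the response differed, 3 libraries of halofuginone-treated and 3 of untreated cells targeted at Rosa26, a neutral locus used as the targeting control, were set beside them. The remaining 6 libraries were of cells targeted at Cebpg. They entered the model only through the shared estimate of spread and the joint scaling of the 18 libraries. The sources used here give no dose of halofuginone, no activation state and no share of cells in which Atf4 was edited. Since no label says whether replicate libraries were separate mice or cultures, each p-value measures only how much these samples vary, which may be technical.

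Halofuginone occupies the active site of prolyl-tRNA synthetase, so that uncharged proline tRNA accumulates and the kinase GCN2 phosphorylates eIF2alpha. This arm of the integrated stress response (ISR) lowers translation in general while favouring translation of ATF4, a bZIP transcription factor that binds composite C/EBP-ATF elements, often together with C/EBP-gamma, the product of Cebpg. Its known targets include enzymes of asparagine, serine and one-carbon metabolism, amino acid transporters, aminoacyl-tRNA synthetases and feedback factors such as Trib3 and Ddit3. Proliferating CD8+ T cells depend on these routes for growth.

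The 3 halofuginone-treated Atf4 KO libraries held 15208700, 14738700 and 18008900 counts, and the 3 untreated ones 16139000, 16976800 and 14852400 (to the nearest 100). Levels are given as CPM, counts scaled for the depth and make-up of each library but not for gene length, in the order of replicates 1, 2 and 3. Halofuginone replicate 3 stood apart from its group. Its counts over genes differed from those of replicates 1 and 2 with a chi-square per degree of freedom of 31.6 and 39.0, against 6.02 between replicates 1 and 2 and 4.05 to 6.34 among the untreated libraries. Genes of the annotation class TEC (transcribed loci that still need experimental evidence) took 0.0735% of its counts, against 0.216% and 0.302% in the other treated libraries and 0.194% to 0.250% in the untreated ones. The long non-coding RNA Malat1 stood at 1158 CPM in it, against 2404 and 3415 CPM in the other treated libraries. Calls of single-gene responses that changed without halofuginone replicate 3 are given both ways. List counts are those of all libraries unless stated, and many of them changed without it. Examples are ISR genes, from 13 to 11 higher and from 9 to 12 negative interactions, ribosome biogenesis, from 28 to 32 lower, and p53 targets, from 14 to 16 higher.

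The labelled cell type was checked against marker genes. The CD8 co-receptor gene Cd8a had 949.5, 929.6 and 997 CPM with halofuginone and 1136, 1139 and 1151 CPM without, Cd3e had 157, 168 and 177 CPM with it and 191, 178 and 182 CPM without, and the 10 CD8 T cell markers summed to 3461 to 4031 CPM against 4170 to 4274 CPM. Of 7 CD4 T cell markers 4 were measured, and their sum was 97.0 to 121.6 CPM with halofuginone and 36.9 to 41.7 CPM without. Ikzf2 and Zbtb7b were the members that rose, and the gene Cd4 itself was not analysed here. Of 8 B cell markers 5 were measured, at a summed 407 to 493 CPM against 407 to 421 CPM, nearly all of it Ighm, while Cd79a had at most 0.562 CPM in any of the 6 libraries. The 2 of 9 myeloid markers that were measured summed to 5.91 to 9.42 CPM against 2.71 to 4.50 CPM, and the 3 of 7 erythroid and platelet markers to 8.77 to 12.3 CPM against 3.94 to 7.95 CPM. Itga2b was the member of these that rose, while the platelet genes Pf4, at 0, 0.0624 and 0 CPM with halofuginone and 0.555, 0.981 and 1.66 CPM without, and Ppbp, at 0, 0 and 0 CPM with and 0.370, 0.346 and 0.530 CPM without, fell. Nkg7, the measured 1 of 4 NK markers and a granule gene that CD8 T cells also express, stood at 243, 239 and 318 CPM with halofuginone and 243, 231 and 228 CPM without. The part of other cell types in the results was not tested.

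Atf4 mRNA was present in every library. It stood at 300.1, 267 and 378 CPM with halofuginone and 301, 281 and 274 CPM without, and the groups overlapped (log2 fold change 0.14 ± 0.10, SE, adjusted p = 0.26). In Rosa26 cells it had 357, 428 and 351 CPM against 281, 267 and 256 CPM (0.50 ± 0.10, adjusted p = 4.7e-04). The difference between the responses of the genotypes was not called (adjusted p = 0.16). A small deletion at a Cas9 cut site need not lower the mRNA, so that its level checks neither the label nor the knockout. Cebpg, the bZIP partner, had 132, 123 and 137 CPM with halofuginone against 59.8, 58.0 and 58.8 CPM without, and rose by 1.15 ± 0.06 on the log2 scale (adjusted p = 7.1e-12).

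Of 14695 genes, 7294 (49.6%) were called: 3397 (23.1%) were higher and 3897 (26.5%) lower with halofuginone in Atf4 KO cells at an adjusted p under 0.05 (edgeR quasi-likelihood test, Benjamini-Hochberg over all genes). At least 2-fold differences among these were seen in 900 genes (6.12%) upward and 927 (6.31%) downward. The levels of the treated libraries lay wholly above those of the untreated ones for 3737 genes (25.4%) and wholly below for 4243 (28.9%). The median log2 fold change over all genes was -0.04. Counts of list members below are to be read against these shares. Without halofuginone replicate 3, 3608 genes were higher and 3993 lower.

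**Figure D1:**
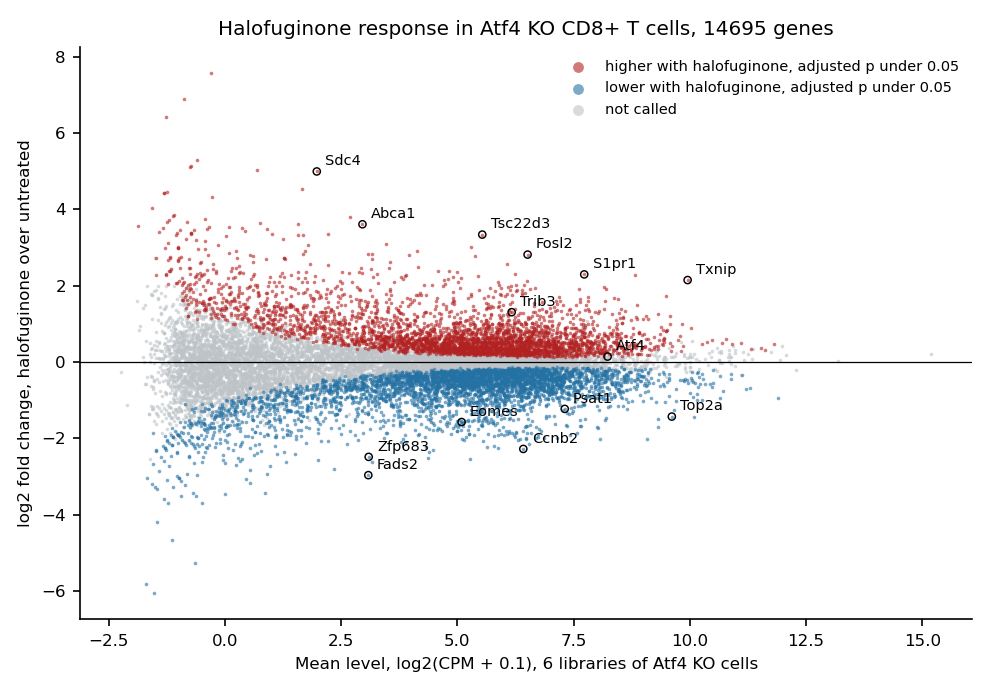
Log2 fold change of halofuginone-treated over untreated Atf4 KO cells (y axis) against the mean level over the 6 libraries, log2(CPM + 0.1) (x axis), 1 point a gene. Red points were called higher and blue points lower at an adjusted p under 0.05, and grey points were not called. Sdc4 and Fads2 lie at the upper and lower edge among named genes with at least 5 CPM in a group, and Atf4 lies near 0.

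The 15 largest increases among named genes with at least 5 CPM in a group were seen in genes of varied function. Sdc4, which encodes the cell-surface proteoglycan syndecan-4, had 8.11, 5.68 and 8.53 CPM with halofuginone and 0.308, 0.173 and 0.199 CPM without (log2 fold change 4.99 ± 0.40, adjusted p = 2.5e-09). Untreated levels of Sdc4, and of Ssc5d at 0.246, 0.173 and 0.331 CPM, were at or near that of 3 counts (0.173 to 0.199 CPM). The size of these 2 fold changes is therefore uncertain. Tsc22d3, the glucocorticoid-inducible leucine zipper gene, had 81.7, 70.5 and 100.5 CPM against 8.20, 8.89 and 7.82 CPM (3.34 ± 0.17), a fold of 10.1 with no overlap between the groups. The set of 15 further held Ssc5d (4.53), Acoxl (3.80), Abca1 (3.61), Slfn5 (3.61), Myof (3.36), Thsd1 (3.32), Kcnip2 (3.08), Wnk4 (3.08), Gbp10 (3.01), Nipa1 (2.91), Cd7 (2.90), Tbx6 (2.82) and Fosl2 (2.82), each value a log2 fold change. In Rosa26 cells all 15 were higher with halofuginone too.

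The 15 largest decreases were mostly those of cell division genes. Fads2, the delta-6 fatty acid desaturase, had 1.90, 2.43 and 1.37 CPM with halofuginone and 14.3, 14.4 and 15.9 CPM without (log2 fold change -2.96 ± 0.15, adjusted p = 2.9e-12). Zfp683, which encodes the tissue-residency factor HOBIT, had 2.58, 3.06 and 2.03 CPM against 14.4, 14.4 and 14.1 CPM (-2.48 ± 0.16). In both genes the groups were separated by a wide gap. Mitotic genes of the set were Ccnb2 (-2.28), Cdca3 (-2.24), Troap (-2.22), Kif14 (-2.22), Ccnf (-2.20), Espl1 (-2.16), Sapcd2 (-2.51) and Iqgap3 (-2.35). Others were the nuclease gene Ankle1 (-2.29), the matrix gene Fbln1 (-2.57) and the histone genes H2bc11 (-2.80) and H3c3 (-2.62).

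Among abundant genes with a change of at least 2-fold, Txnip, which encodes an arrestin-like inhibitor of glucose uptake and thioredoxin, rose the most. It had 1621, 1498 and 1725 CPM with halofuginone and 373, 374 and 346 CPM without (log2 fold change 2.15 ± 0.09, adjusted p = 1.8e-13), and its relative Arrdc4 rose by 2.49 ± 0.15. They were the 2 of 7 measured members of their list that rose, and Arrdc1 fell by 0.44 on the log2 scale. Ifngr1, the ligand-binding chain of the interferon-gamma receptor, had 1029.7, 1062 and 1193 CPM against 312, 342 and 332 CPM (1.74 ± 0.07). Samhd1 (1.22 ± 0.09), a dNTP hydrolase, and Rbm39 (1.01 ± 0.06), a splicing factor, were also among these 10 genes, while mt-Nd1 (-1.003 ± 0.15), Tubb5 (-1.44 ± 0.09), Pkm (-1.02 ± 0.12), Hnrnpa3 (-1.27 ± 0.07), Top2a (-1.43 ± 0.06) and Ybx1 (-1.04 ± 0.09) were lower.

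Most ISR genes rose with halofuginone in Atf4 KO cells. Of 21 measured ISR factors and effectors, 13 rose and 1 fell, with a median log2 fold change of 0.63; in Rosa26 cells 19 of the 21 rose, where 23.6% of all genes did, and the median was 1.09. Trib3, a pseudokinase that feeds back on ATF4, had 102, 84.7 and 119.5 CPM with halofuginone and 45.2, 37.7 and 41.0 CPM without in Atf4 KO cells, a log2 fold change of 1.31 ± 0.11 (adjusted p = 1.6e-08). In Rosa26 cells it had 309, 356 and 294 CPM against 50.02, 52.3 and 51.6 CPM. The test of the difference between the responses (interaction, Atf4 KO minus Rosa26) gave -1.33 ± 0.16 (adjusted p = 5.4e-05), so that the increase in Atf4 KO cells was present and smaller.

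Atf5, a bZIP factor under the same translational control as ATF4, rose by 1.46 ± 0.14 to 31.0, 31.0 and 40.6 CPM in treated Atf4 KO cells, against 12.3, 12.3 and 12.7 CPM in untreated ones, with an interaction of -1.82 ± 0.20. The pro-apoptotic bZIP gene Ddit3 (CHOP) had 36.5, 30.4 and 40.0 CPM against 13.9, 10.2 and 9.61 CPM (1.67 ± 0.20); its interaction of -1.09 ± 0.30 was not called in 11 of 19 alternative analyses. Cebpg rose in both genotypes with an interaction of -0.54 ± 0.09. In all, 9 of the 21 members had a negative interaction, a less positive response in Atf4 KO cells, where 4.01% of all genes had one. Nars1, the asparaginyl-tRNA synthetase, was the member that fell, at 139, 138 and 149.7 CPM with halofuginone and 174, 181 and 175 CPM without (-0.31 ± 0.06), with an interaction of -0.61 ± 0.09. Asns, the asparagine synthetase gene and a classical ATF4 target, was chosen after its values were seen: it had 21.8, 19.3 and 23.4 CPM with halofuginone and 19.97, 23.2 and 20.8 CPM without in Atf4 KO cells (log2 fold change 0.01 ± 0.09, adjusted p = 0.93), and 84.5, 94.8 and 81.3 CPM against 40.5, 44.0 and 44.3 CPM in Rosa26 cells, an interaction of -1.002 ± 0.12 (adjusted p = 5.6e-05).

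Gadd45b, a stress- and NF-kB-inducible regulator of MAP kinases, was the member with an interaction in the opposite direction. It had 15.8, 20.2 and 23.4 CPM with halofuginone against 4.56, 4.50 and 4.90 CPM without in Atf4 KO cells (log2 fold change 2.09 ± 0.17), and 10.99, 12.8 and 9.71 CPM against 6.31, 8.43 and 6.57 CPM in Rosa26 cells, so that its increase was larger in Atf4 KO cells (interaction 1.44 ± 0.24, adjusted p = 0.0012). Bbc3, which encodes the BH3-only protein PUMA, rose by 1.44 ± 0.13. Of the 12 eIF2alpha kinases, phosphatase subunits and eIF2B subunits, 3 rose and 7 fell. Eif2ak3, the endoplasmic reticulum kinase PERK, had 152, 154 and 157 CPM against 60.5, 61.7 and 58.96 CPM (1.35 ± 0.06), while the double-stranded RNA kinase gene Eif2ak2 fell by 0.70 and the eIF2B subunit gene Eif2b5 by 0.51 on the log2 scale. No member of that list had a called interaction.

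Promoters of Trib3 and Asns are shown because one gene kept a response in Atf4 KO cells and the other had none that passed the test. The capitals mark the C/EBP-ATF core TGATGNAA on either strand. The sequences run 5′ to 3′ on the gene's strand from 250 bases before to 50 bases after the start (RefSeq, GRCm38.p6: Trib3 on chr2:152344011-152344310, minus strand; Asns on chr6:7693160-7693459, minus strand). The element lies 15 bases after the start in Trib3 and 23 bases before it in Asns.
Trib3: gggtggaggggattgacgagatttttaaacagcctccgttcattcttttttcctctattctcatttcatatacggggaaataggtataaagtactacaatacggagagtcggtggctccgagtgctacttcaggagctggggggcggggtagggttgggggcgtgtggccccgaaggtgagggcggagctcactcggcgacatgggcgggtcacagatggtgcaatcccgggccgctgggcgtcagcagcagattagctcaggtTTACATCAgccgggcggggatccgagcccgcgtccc
Asns: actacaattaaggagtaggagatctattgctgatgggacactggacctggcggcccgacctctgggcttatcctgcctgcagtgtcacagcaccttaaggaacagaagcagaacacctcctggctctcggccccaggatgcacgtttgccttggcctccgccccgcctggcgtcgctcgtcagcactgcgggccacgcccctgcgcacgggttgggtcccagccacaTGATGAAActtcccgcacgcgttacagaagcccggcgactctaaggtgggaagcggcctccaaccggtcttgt
A match was present in 1304 of 32851 mouse promoters of this length (3.97%), and in 6 of the 28 promoters of the ISR list (21.4%), those of Atf3, Chac1, Herpud1, Jdp2, Nupr1 and Trib3. These are descriptions of letters in a window and carry no statement on binding.

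Most serine and one-carbon enzymes fell in Atf4 KO cells. Of 16 serine and one-carbon enzymes 12 fell and 2 rose (median log2 fold change -0.66), against 7 lower in Rosa26 cells (24.1% of all genes). Psat1, the phosphoserine aminotransferase of serine synthesis, had 89.3, 91.6 and 104 CPM with halofuginone and 216, 229 and 221 CPM without (log2 fold change -1.23 ± 0.07, adjusted p = 1.1e-11; interaction -0.93 ± 0.09). The Rosa26 libraries had 264, 297 and 255 CPM against 332, 337 and 335 CPM. Mthfd2, the mitochondrial folate enzyme, fell to 72.2, 68.4 and 75.2 CPM, against 109, 118 and 116 CPM in untreated Atf4 KO cells (-0.67 ± 0.06), while Rosa26 cells had 172, 183 and 168 CPM with and 157, 167 and 165 CPM without the drug (interaction -0.77 ± 0.08). Untreated Atf4 KO libraries thus already lay below untreated Rosa26 libraries for Psat1 and Mthfd2, and treated ones lower still. Mthfd1 (-0.95 ± 0.07) and the thymidylate synthase gene Tyms (-1.60 ± 0.08) fell as well. Both fell in Rosa26 cells too (-0.52 and -1.23 in that order). The interaction was called for Mthfd1, with a more negative response in Atf4 KO cells, and not for Tyms.

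Of 20 enzymes of asparagine, proline, alanine and glutamate metabolism, 10 fell and 2 rose (median -0.29), against 11 lower and 4 higher in Rosa26 cells (median -0.33), with 5 negative interactions. The argininosuccinate synthase gene Ass1 fell by 1.69 on the log2 scale, to 43.4, 34.2 and 47.2 CPM against 134, 134 and 135 CPM. Oat (-1.05 ± 0.10), Got1 (-0.79 ± 0.07) and the branched-chain aminotransferase gene Bcat1 (-0.80 ± 0.08, interaction -0.71 ± 0.10) were lower too. In Rosa26 cells Ass1, Oat and Got1 also fell (-1.32, -0.90 and -0.35 in that order). Among Ass1, Oat and Got1, only Got1 had a called interaction, with a more negative response in Atf4 KO cells. Gpt2, the mitochondrial alanine aminotransferase, rose in both genotypes, to 11.98, 11.6 and 13.1 CPM against 5.48, 5.54 and 6.56 CPM in Atf4 KO cells and 49.0, 52.8 and 47.9 CPM against 10.7, 10.6 and 9.20 CPM in Rosa26 cells (interaction -1.23 ± 0.18).

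Amino acid transporters moved in both directions. Of 20 measured, 6 rose and 10 fell, and 9 had a negative interaction. The glycine transporter gene Slc6a9 had 5.83, 4.62 and 7.99 CPM with halofuginone and 1.48, 1.10 and 1.26 CPM without (2.26 ± 0.20, interaction -1.36 ± 0.28). Slc38a2, the sodium-coupled neutral amino acid transporter SNAT2, had 302, 302 and 297 CPM against 194, 201 and 204 CPM (0.59 ± 0.06, interaction -0.35 ± 0.08), and Slc1a4, an alanine, serine and cysteine carrier, rose by 1.58 ± 0.14 (interaction -0.71 ± 0.19, not called in 5 of 19 alternatives). Each of these increases was smaller than in Rosa26 cells. Slc43a3, a purine base carrier listed with its amino acid relatives, fell by 1.09 (interaction -0.61 ± 0.10).

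Cytosolic aminoacyl-tRNA synthetases were mostly lower: 12 of 19 fell and 3 rose, against 7 lower and 8 higher in Rosa26 cells, and 11 had a negative interaction. Aars1, the alanyl-tRNA synthetase, was an exception with 219, 215 and 249 CPM with halofuginone and 134, 136 and 143 CPM without (0.73 ± 0.06, interaction -0.49 ± 0.09). Hars1 (-0.80 ± 0.08), Kars1 (-0.75 ± 0.08) and Farsa (-0.59 ± 0.08) fell, and in each the groups did not overlap. These genes fell in Rosa26 cells too (-0.53, -0.51 and -0.55 in that order), and none of them had a called interaction. Of 17 mitochondrial synthetases 8 fell and 3 rose, with Wars2 at 0.58 ± 0.09.

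Regulators of the growth kinase mTORC1 moved little as a group, with 6 of 22 higher and 3 lower. The leucine-sensor relative Sesn3 was the clearest of them, at 378, 398 and 356 CPM with halofuginone and 149, 149.7 and 149 CPM without (log2 fold change 1.34 ± 0.06, adjusted p = 3.2e-13; interaction 0.41 ± 0.08). Castor2, of the arginine sensor family, rose by 0.82 ± 0.15, and Fnip2, a folliculin partner, fell by 0.74. Of 23 glutathione and thioredoxin genes 16 fell and 1 rose. Txnrd1, thioredoxin reductase, had 164, 174 and 184 CPM against 320.4, 322 and 314 CPM (-0.87 ± 0.06, interaction -0.49 ± 0.08), Gsr (-0.77 ± 0.06) and G6pdx (-0.82 ± 0.09) were lower, and Prdx6 rose by 0.40 ± 0.08.

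**Figure D2:**
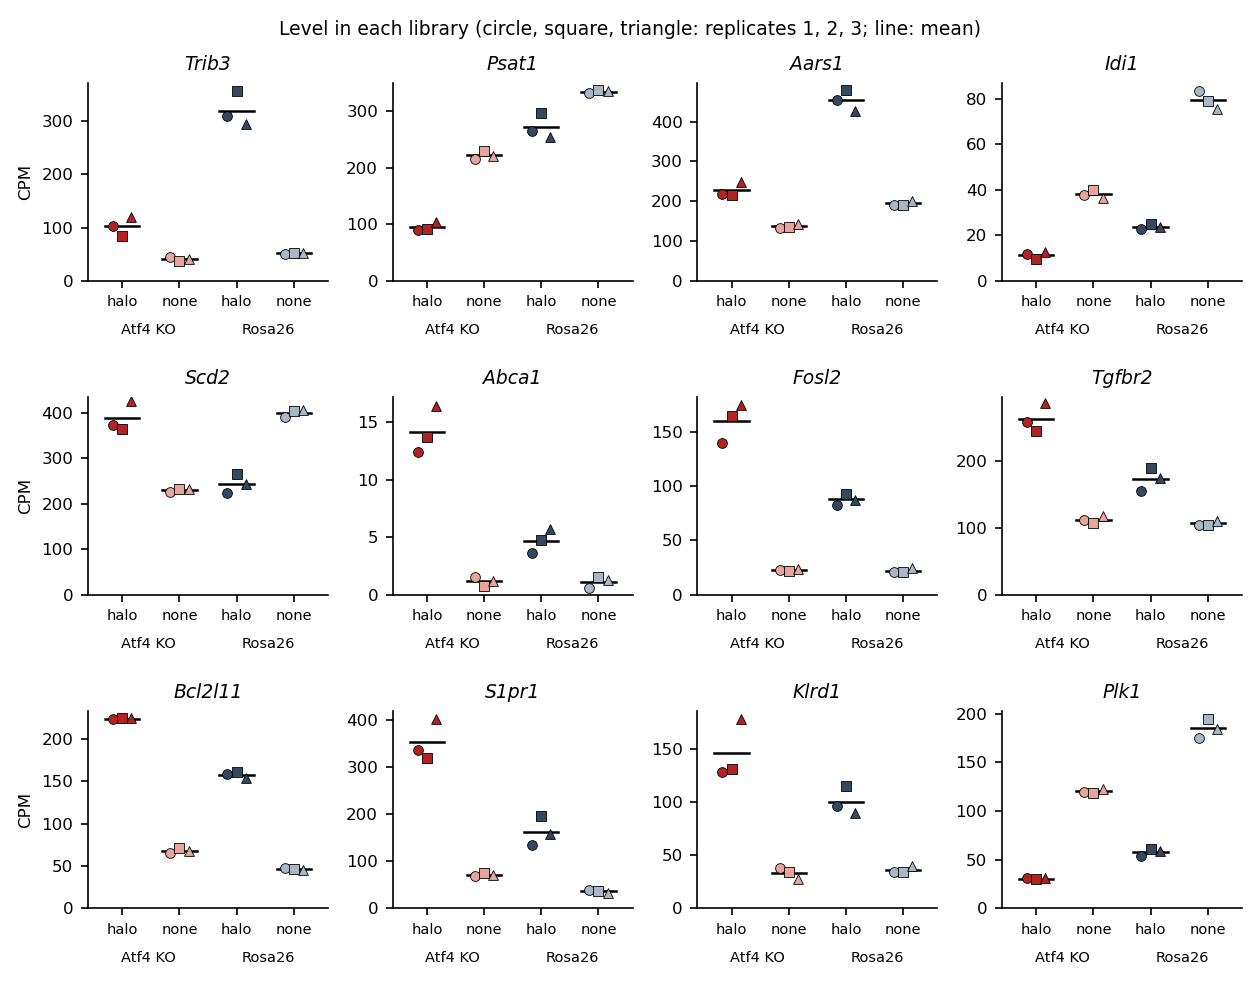
Level in CPM (y axes, from 0) of 12 genes in each library of Atf4 KO and Rosa26 cells with halofuginone (halo) and without (none). Each symbol is 1 library and each line the mean of 3. Scd2 is higher with halofuginone in Atf4 KO cells and lower in Rosa26 cells, and Psat1 is lowest in treated Atf4 KO cells.

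Sterol synthesis genes fell and sterol export genes rose. These routes are linked in T cells: SREBP-2 drives synthesis and uptake when sterols are scarce, and the liver X receptors (LXR) drive export when oxysterols abound. Of 27 genes of cholesterol synthesis and SREBP control, 24 fell and 2 rose (median -0.88). Idi1, an isomerase of the route, had 11.6, 9.55 and 12.5 CPM with halofuginone and 37.6, 39.9 and 36.2 CPM without (log2 fold change -1.76 ± 0.11, adjusted p = 5.6e-11). Hmgcs1, the HMG-CoA synthase, had 49.4, 44.8 and 48.8 CPM against 103, 119 and 119 CPM (-1.25 ± 0.07), and Insig2, a retention protein of the SREBP complex, rose by 0.76 ± 0.10. In Rosa26 cells 24 of the 27 fell as well, and 2 members had a positive and 2 a negative interaction.

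Of 13 LXR targets and sterol export genes, 9 rose and 3 fell, and 4 had a positive interaction against 0 negative. Abca1, the cholesterol efflux pump, had 12.4, 13.7 and 16.4 CPM with halofuginone and 1.54, 0.750 and 1.19 CPM without in Atf4 KO cells (3.61 ± 0.28, adjusted p = 2.0e-09), and 3.58, 4.72 and 5.73 CPM against 0.600, 1.56 and 1.23 CPM in Rosa26 cells. The interaction of 1.58 ± 0.42 was not called in 6 of 19 alternatives. Abcg1, a second efflux pump, rose to 102, 101 and 108 CPM, against 33.5, 31.6 and 25.8 CPM in untreated Atf4 KO cells (1.77 ± 0.09, interaction 0.60 ± 0.13), and Mylip, an LXR-induced ubiquitin ligase, to 31.2, 26.2 and 27.1 CPM against 7.89, 9.64 and 6.69 CPM (1.80 ± 0.12, interaction 0.89 ± 0.18). Apoe rose by 1.14 ± 0.12, and Soat1, which esterifies cholesterol for storage, fell by 0.42. For Abcg1 and Mylip, the interactions were called in each of the 19 alternatives.

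Of 18 genes of fatty acid synthesis and desaturation 13 fell and 3 rose, and 4 members had a positive interaction. Fasn (-1.04 ± 0.06), Acaca (-0.91 ± 0.07) and Acsl5 (-1.17 ± 0.05) fell in both genotypes. Scd2, a stearoyl-CoA desaturase, differed in direction. It had 374, 365 and 425 CPM with halofuginone and 227, 232 and 233 CPM without in Atf4 KO cells (0.75 ± 0.07, adjusted p = 3.0e-08), but 225, 266 and 243 CPM with and 392, 404 and 405 CPM without in Rosa26 cells (-0.71 ± 0.07, adjusted p = 7.2e-08). The interaction was 1.46 ± 0.10 (adjusted p = 1.1e-07), and the treated and untreated libraries did not overlap in either genotype. The acyl-CoA synthetase gene Acsl3 had 4.61, 3.99 and 5.79 CPM with and 5.73, 8.20 and 5.90 CPM without halofuginone in Atf4 KO cells (-0.46 ± 0.22, adjusted p = 0.085; -0.58, adjusted p = 0.041, without halofuginone replicate 3) and 4.16, 3.91 and 2.93 CPM against 14.9, 11.9 and 15.4 CPM in Rosa26 cells, an interaction of 1.47 ± 0.30.

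The listed genes of mitosis and DNA replication fell without exception. All 60 genes of mitosis, kinetochore and spindle were lower (median -1.70), as were all 44 DNA replication genes (median -0.97). These held without halofuginone replicate 3. In Rosa26 cells all 60 mitosis genes (median -1.56) and 43 of the 44 replication genes (median -0.68) were lower too, where 24.1% of all genes were. Of the mitosis genes 2 had a positive and 9 a negative interaction, where 2.41% and 4.01% of all genes did. That count of negative interactions ran from 5 to 20 over the alternatives. Plk1, the polo-like kinase of mitotic entry, had 31.0, 30.2 and 31.0 CPM with halofuginone and 120.0, 118 and 123 CPM without (log2 fold change -1.97 ± 0.06, adjusted p = 8.1e-15). Espl1, which encodes separase, had 34.3, 33.6 and 33.8 CPM against 149, 153 and 151 CPM (-2.16 ± 0.07). Prc1, a midzone bundling protein, fell by 1.98 and Bub1b, a checkpoint kinase, by 2.00. In each of these genes every treated library lay below every untreated one.

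Promoters of Ccnb2 (cyclin B2) and Plk1 are shown as examples of this set, whose members moved together. Capitals mark the CCAAT box (CCAAT) and the cell cycle homology region core (CHR, TTTGAA), each searched on both strands (RefSeq, GRCm38.p6: Ccnb2 on chr9:70421505-70421804, minus strand; Plk1 on chr7:122159185-122159484, plus strand; 250 bases before to 50 after the start).
Ccnb2: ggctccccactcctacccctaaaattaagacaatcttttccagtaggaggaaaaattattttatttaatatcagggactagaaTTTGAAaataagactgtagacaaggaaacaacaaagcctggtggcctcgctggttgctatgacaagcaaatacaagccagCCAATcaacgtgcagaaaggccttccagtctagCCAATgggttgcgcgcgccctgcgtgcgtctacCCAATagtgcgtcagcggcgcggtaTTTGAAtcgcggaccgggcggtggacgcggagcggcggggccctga
Plk1: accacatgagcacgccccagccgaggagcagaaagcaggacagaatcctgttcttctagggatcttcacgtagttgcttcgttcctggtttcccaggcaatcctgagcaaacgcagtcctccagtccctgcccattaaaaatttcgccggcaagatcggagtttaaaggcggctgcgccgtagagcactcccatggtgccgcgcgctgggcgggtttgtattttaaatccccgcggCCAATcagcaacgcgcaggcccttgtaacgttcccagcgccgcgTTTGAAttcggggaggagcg
Both motifs were present in 33 of 57 promoters of 51 mitosis genes (57.9%), against 2284 of all 32851 RefSeq promoters of this length (6.95%). Those are promoters of 27025 genes, whether measured here or not, and only 51 of the 60 mitosis genes had a promoter among them. The counts describe letters in a window, and a link to the fall was not tested. The CHR core alone was in 66.7% of the mitosis promoters and 13.3% of the 45 promoters of 36 DNA replication genes, against 17.9% of all.

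Many DNA replication genes fell further in Atf4 KO cells than in Rosa26 cells: 23 of 44 had a negative interaction and 0 a positive one, against 4.01% and 2.41% of all genes. Its count of negative interactions ran from 14 to 29 over the alternatives. Uhrf1, which couples DNA methylation to replication, had 114, 112 and 137 CPM with halofuginone and 396, 394 and 381 CPM without (-1.69 ± 0.07, interaction -0.43 ± 0.09). The maintenance methyltransferase gene Dnmt1 had 238, 235 and 253 CPM against 557, 568 and 566 CPM (-1.22 ± 0.05, interaction -0.48 ± 0.08), and the checkpoint mediator gene Clspn fell by 1.55 (interaction -0.49 ± 0.08). Mcm10 fell by 1.39. Of 31 nucleotide synthesis genes 25 fell, with the ribonucleotide reductase genes Rrm1 (-1.74 ± 0.08, interaction -0.45 ± 0.11) and Rrm2 (-1.68 ± 0.07) and the thymidine kinase gene Tk1 (-1.87 ± 0.09, interaction -0.69 ± 0.12) among them, while the mitochondrial kinase gene Tk2 rose by 0.63 ± 0.09.

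Of 29 measured G1 cyclins, CDKs, inhibitors and E2F genes, 17 fell and 8 rose. Ccne1 (-1.33 ± 0.06), E2f8 (-1.65 ± 0.08) and the inhibitor gene Cdkn2c (-1.68 ± 0.09) were lower. Ccng2, a cyclin associated with cell cycle exit, had 60.2, 54.9 and 73.0 CPM with halofuginone and 34.3, 29.0 and 31.1 CPM without (0.99 ± 0.11, interaction 0.77 ± 0.15). Of 53 clustered histone genes 39 fell and 4 rose; histone mRNAs have near-identical copies and mostly lack long poly-A tails, so that their values in poly-A libraries are uncertain.

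Growth machinery was lower, to a degree that depended on 1 library. Of 36 ribosome biogenesis genes 28 fell and 0 rose, with Mybbp1a at 280.4, 259.7 and 312 CPM with halofuginone and 584, 581 and 556 CPM without (-1.01 ± 0.08), and with Polr1b (-0.89 ± 0.06), Wdr12 (-0.93 ± 0.07) and Gnl3 (-0.83 ± 0.05) lower. Of 84 nuclear genes of oxidative phosphorylation 60 fell and 2 rose, of 77 mitochondrial ribosomal proteins 49 fell and 2 rose, and of 45 proteasome subunits 27 fell and 1 rose. Atp5g1, a subunit c gene of ATP synthase, had 46.7, 46.4 and 62.2 CPM against 127, 115 and 112 CPM (-1.19 ± 0.10, interaction -0.65 ± 0.14), and Atp5mc3 fell by 1.13. Mrps25 (-1.51 ± 0.12), Psmd1 (-0.79 ± 0.06) and Psmc1 (-0.86 ± 0.08) are further examples.

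In these lists halofuginone replicate 3 lay closer to the untreated cells than replicates 1 and 2 did. The median log2 difference from the untreated mean was -0.67, -0.81 and -0.17 for oxidative phosphorylation, -0.55, -0.58 and -0.04 for proteasome subunits and -1.21, -1.06 and -0.04 for the 10 mitochondrially encoded mRNAs. For the 81 cytosolic ribosomal protein genes it was -0.12, -0.28 and 0.52, so that replicate 3 lay above the untreated libraries and the others below. Without it, 75 oxidative phosphorylation genes, 65 mitochondrial ribosomal proteins, 37 proteasome subunits and 9 mitochondrial mRNAs fell. The cytosolic ribosomal protein genes numbered 6 higher and 7 lower with all libraries, and 23 lower without replicate 3. For mitosis the 3 medians were -1.81, -1.73 and -1.68, and for cholesterol synthesis -0.98, -0.85 and -0.78, which differ less between libraries. Replicate 3 was also closest to the untreated cells for the folding and redox lists, at medians of -0.58, -0.64 and -0.25 for endoplasmic reticulum chaperones, -0.53, -0.68 and -0.30 for other chaperones and -0.66, -0.77 and -0.28 for glutathione and thioredoxin genes, and their counts of lower genes without it were 17, 21 and 17.

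**Figure D3:**
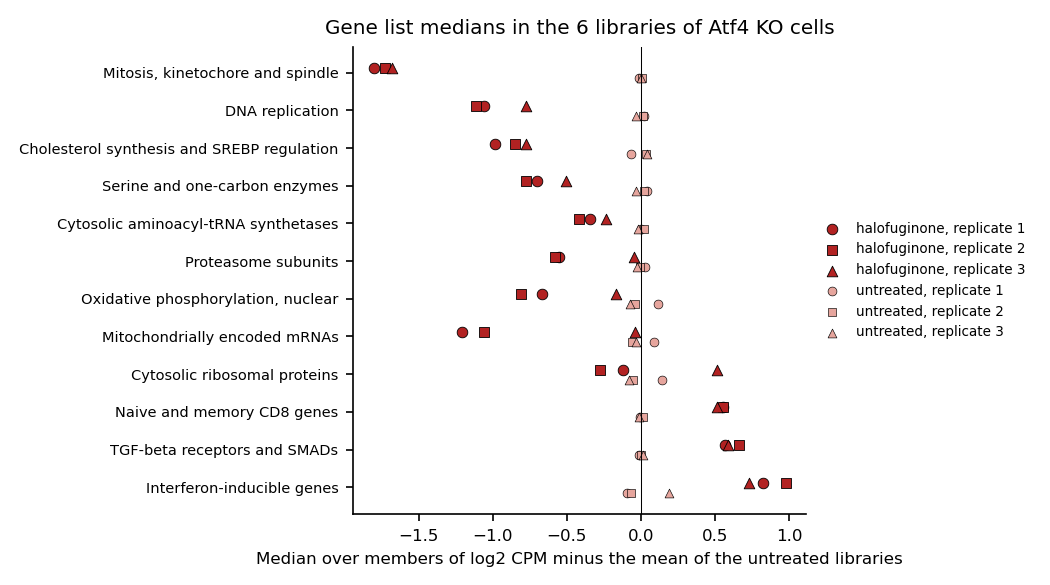
Median over list members of log2 CPM minus the mean of the untreated libraries (x axis) for 12 gene lists (y axis) in Atf4 KO cells. Dark symbols are the 3 halofuginone libraries and pale symbols the 3 untreated ones. Replicate 3 (dark triangle) is near 0 for mitochondrially encoded mRNAs and proteasome subunits, and beside the other treated libraries for mitosis, TGF-beta and naive and memory genes.

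Protein folding and glycolysis genes were lower as well. Of 28 endoplasmic reticulum chaperone and degradation genes 17 fell and 5 rose: Sdf2l1 had 13.1, 12.9 and 15.8 CPM with halofuginone and 48.9, 46.3 and 43.3 CPM without (-1.73 ± 0.08), Calr (calreticulin) fell by 1.17, Hyou1 by 0.78, and the co-chaperone gene Dnajb9 rose by 0.93 ± 0.13. Xbp1, the transcription factor of the unfolded protein response, fell to 95.6, 103 and 134 CPM against 221, 217 and 219 CPM (-0.98 ± 0.09), and by more than in Rosa26 cells (interaction -0.66 ± 0.13). Of 27 cytosolic and mitochondrial chaperones 20 fell, Hspd1 (-0.95 ± 0.08) and Cct8 (-0.88 ± 0.07) among them, while Hspa4l, an HSP110 family member, rose by 1.05 ± 0.08 (interaction 0.57 ± 0.12). Of 24 glycolytic genes 18 fell and 2 rose. The lactate exporter gene Slc16a3 had 5.71, 7.74 and 9.31 CPM against 27.6, 27.2 and 29.6 CPM (-1.89 ± 0.12), and Pgam1 (-1.28 ± 0.09), Pgk1 (-1.14 ± 0.08) and Pfkl (-1.12 ± 0.07) were lower. Pfkfb3, which makes the allosteric activator of phosphofructokinase, rose by 0.57 ± 0.08 in Atf4 KO cells, with 48.0, 53.2 and 46.7 CPM with and 50.1, 51.5 and 54.2 CPM without halofuginone in Rosa26 cells (interaction 0.64 ± 0.12). Hif1a rose by 0.76 ± 0.06, while of 17 hypoxia-responsive genes 6 rose and 7 fell.

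Signalling and transcription factor genes rose in Atf4 KO cells, in part beyond the increase in Rosa26 cells. Of 30 immediate early, NR4A, EGR and KLF genes, 20 rose and 6 fell, with 5 positive interactions and 1 negative. The AP-1 gene Fosl2 had 139.8, 164 and 174 CPM with halofuginone and 22.7, 21.4 and 23.8 CPM without in Atf4 KO cells (log2 fold change 2.82 ± 0.09, adjusted p = 1.2e-14), and 82.6, 92.9 and 87.0 CPM against 20.5, 20.8 and 24.4 CPM in Rosa26 cells (interaction 0.82 ± 0.13, adjusted p = 7.7e-04). Untreated levels of Fosl2 were alike in range between the genotypes, and treated Atf4 KO libraries lay above treated Rosa26 libraries. Nr4a1, an orphan nuclear receptor induced by T cell receptor signals, had 13.3, 10.5 and 12.5 CPM against 2.90, 1.44 and 2.78 CPM (2.36 ± 0.26), with 4.50, 6.71 and 4.36 CPM against 3.54, 3.71 and 3.48 CPM in Rosa26 cells (interaction 1.83 ± 0.37, adjusted p = 0.0046). Dusp4, a MAP kinase phosphatase, rose by 1.52 ± 0.12 (interaction 0.73 ± 0.17). Klf10 (1.76 ± 0.10) and Klf3 (1.14 ± 0.08) rose, and Fosb fell to 0.307, 0.374 and 0.179 CPM against 3.51, 2.60 and 3.38 CPM.

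Of 34 bZIP factor genes other than Atf4 and Cebpg, 18 rose and 3 fell. Crem, a cAMP-responsive modulator, had 78.1, 74.2 and 93.0 CPM with halofuginone and 20.3, 20.9 and 22.8 CPM without (1.94 ± 0.09), and Bach2, a repressor that restrains effector differentiation, had 219.6, 229 and 179.9 CPM against 64.6, 69.3 and 73.3 CPM (1.602 ± 0.08).

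TGF-beta pathway genes mostly rose. Of 23 receptors, SMADs and modifiers 17 rose and 1 fell, with 5 positive interactions and 0 negative. The receptor gene Tgfbr2 had 258, 245 and 286 CPM with halofuginone and 111, 107 and 118 CPM without in Atf4 KO cells (1.23 ± 0.07), and 155, 189.8 and 174 CPM against 104, 104 and 109.9 CPM in Rosa26 cells (interaction 0.53 ± 0.10). Skil, a SMAD co-repressor, had 323, 322 and 286 CPM against 81.9, 82.2 and 83.5 CPM (1.91 ± 0.06, adjusted p = 1.1e-14). The inhibitory SMAD gene Smad7 rose by 1.38 ± 0.08 (interaction 0.41 ± 0.11, not called in 7 of 19 alternatives), and Itgae, the integrin CD103 that TGF-beta induces in CD8 T cells, had 178, 176 and 203 CPM against 64.7, 73.2 and 69.4 CPM (1.43 ± 0.07). The count of positive interactions ran from 2 to 5 over the alternatives.

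Cytokine receptors and their signalling genes were raised. Of 22 cytokine receptor genes 15 rose and 3 fell: Ifngr2, the second chain of the interferon-gamma receptor, had 124, 123 and 144 CPM with halofuginone and 36.6, 39.1 and 35.2 CPM without (1.82 ± 0.07), the receptor kinase gene Kit 36.4, 33.9 and 35.4 CPM against 6.78, 9.64 and 9.41 CPM (2.03 ± 0.12), and Il12rb2 rose by 1.498 ± 0.10, while Il27ra fell by 0.65. Of 21 JAK, STAT and SOCS genes 16 rose and 2 fell, with Jak2 (1.02 ± 0.05), Socs3 (1.32 ± 0.09) and Stat4 (0.88 ± 0.07) higher and Socs2 (-0.68 ± 0.08) lower. Of 52 interferon-inducible genes 34 rose and 7 fell (median 0.85), and in Rosa26 cells 38 rose (median 1.07). The nucleic acid sensor gene Zbp1 had 120.5, 141 and 127 CPM against 37.3, 34.0 and 43.1 CPM (1.77 ± 0.10), and Ifi209 rose by 1.36 ± 0.07. Of 21 genes of MHC class I presentation 12 rose, among them the peptide transporter gene Tap1 (0.89 ± 0.08) and H2-Q6 (1.03 ± 0.07), whose reads may be shared with related class I genes.

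Most listed genes of the naive and memory state rose, and effector genes moved in both directions. Among 26 genes of that state, 18 rose and 4 fell. S1pr1, the receptor for egress from lymphoid tissue, had 336, 319 and 401 CPM with halofuginone and 69.9, 74.9 and 70.1 CPM without (log2 fold change 2.30 ± 0.11, adjusted p = 7.1e-12), and the transcription factor gene Lef1 had 336, 311 and 301 CPM against 155, 152 and 171 CPM (0.99 ± 0.06). Tcf7, the memory factor TCF-1, was chosen after its values were seen because it was the list member with a called interaction: it had 645, 549.8 and 684 CPM against 378, 393 and 376 CPM in Atf4 KO cells (0.71 ± 0.08) and 371, 452 and 369.8 CPM against 365, 389 and 376 CPM in Rosa26 cells (interaction 0.63 ± 0.12, adjusted p = 0.0023). Eomes, a T-box factor of memory and effector cells, fell to 17.6, 17.7 and 16.05 CPM against 50.7, 46.7 and 55.1 CPM (-1.57 ± 0.10).

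Of 31 effector and cytotoxic genes 12 rose and 7 fell, where 23.1% and 26.5% of all genes did. The list's median log2 difference from the untreated mean was 0.03, 0.20 and 0.43 in halofuginone replicates 1, 2 and 3. Its median log2 fold change was 0.17 with all libraries and 0.07 without replicate 3. The increases included the lectin receptor genes Klrd1, at 128, 132 and 179 CPM with halofuginone and 38.6, 34.2 and 28.2 CPM without (2.12 ± 0.14), Klrk1 (1.73 ± 0.11) and Klrc1 (1.58 ± 0.16), which encode CD94, NKG2D and NKG2A, and the death ligand gene Fasl (1.75 ± 0.18). Zfp683 fell as given above, and granzyme B mRNA (Gzmb, chosen after its values were seen) had 730.5, 756 and 920.4 CPM against 1076, 1095 and 1106 CPM (-0.44 ± 0.08). Of 22 inhibitory receptors and exhaustion factors 13 rose and 5 fell: Ikzf2, which also stands in the CD4 marker list, had 89.3, 99.9 and 75.8 CPM against 22.1, 24.6 and 25.8 CPM (1.87 ± 0.11), Ctla4 285, 294 and 402 CPM against 157, 149.8 and 159 CPM (1.07 ± 0.11), and the collagen receptor gene Lair1 fell by 1.44. Nt5e, the ectoenzyme CD73, rose by 1.19 ± 0.07, less than in Rosa26 cells (interaction -0.60 ± 0.10). In these bulk libraries, a change in the mRNA per cell and a change in the share of cells of a kind cannot be told apart.

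Of 19 TNF superfamily genes 10 rose and 1 fell, with Tnfsf8, the CD30 ligand, at 1.31 ± 0.06. Of 40 T cell receptor and proximal signalling genes 17 rose and 10 fell; the negative regulators Ptpn22 (0.83 ± 0.05), Cblb (0.89 ± 0.07) and Dgka (0.83 ± 0.06) were higher and Ptpn6, encoding SHP-1, was lower (-0.95 ± 0.07).

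Regulators of cell death moved in both directions. Of 16 BCL2 family genes 6 rose and 3 fell, where 23.1% and 26.5% of all genes did. The list's median log2 difference from the untreated mean was -0.04, -0.05 and 0.40 in halofuginone replicates 1, 2 and 3. Its median log2 fold change was 0.16 with all libraries and -0.09 without replicate 3. Bcl2l11, which encodes the BH3-only protein BIM, had 223, 224 and 224 CPM with halofuginone and 65.0, 70.8 and 68.0 CPM without (log2 fold change 1.72 ± 0.06, adjusted p = 1.9e-14). The survival genes Mcl1, at 479.6, 459.9 and 562 CPM against 254, 254 and 237 CPM (1.01 ± 0.08, interaction 0.40 ± 0.11, not called in 7 of 19 alternatives), and Bcl2 (0.68 ± 0.06) rose too, and Bnip3 fell by 0.62. Of 27 p53 targets 14 rose and 3 fell. Trp53inp1 rose by 1.11 ± 0.05 and the polo-like kinase gene Plk2 by 1.85 ± 0.12, less than in Rosa26 cells (interaction -0.93 ± 0.18), Fas rose by 1.15 ± 0.11, and Trp53 itself fell by 0.67.

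**Figure D4:**
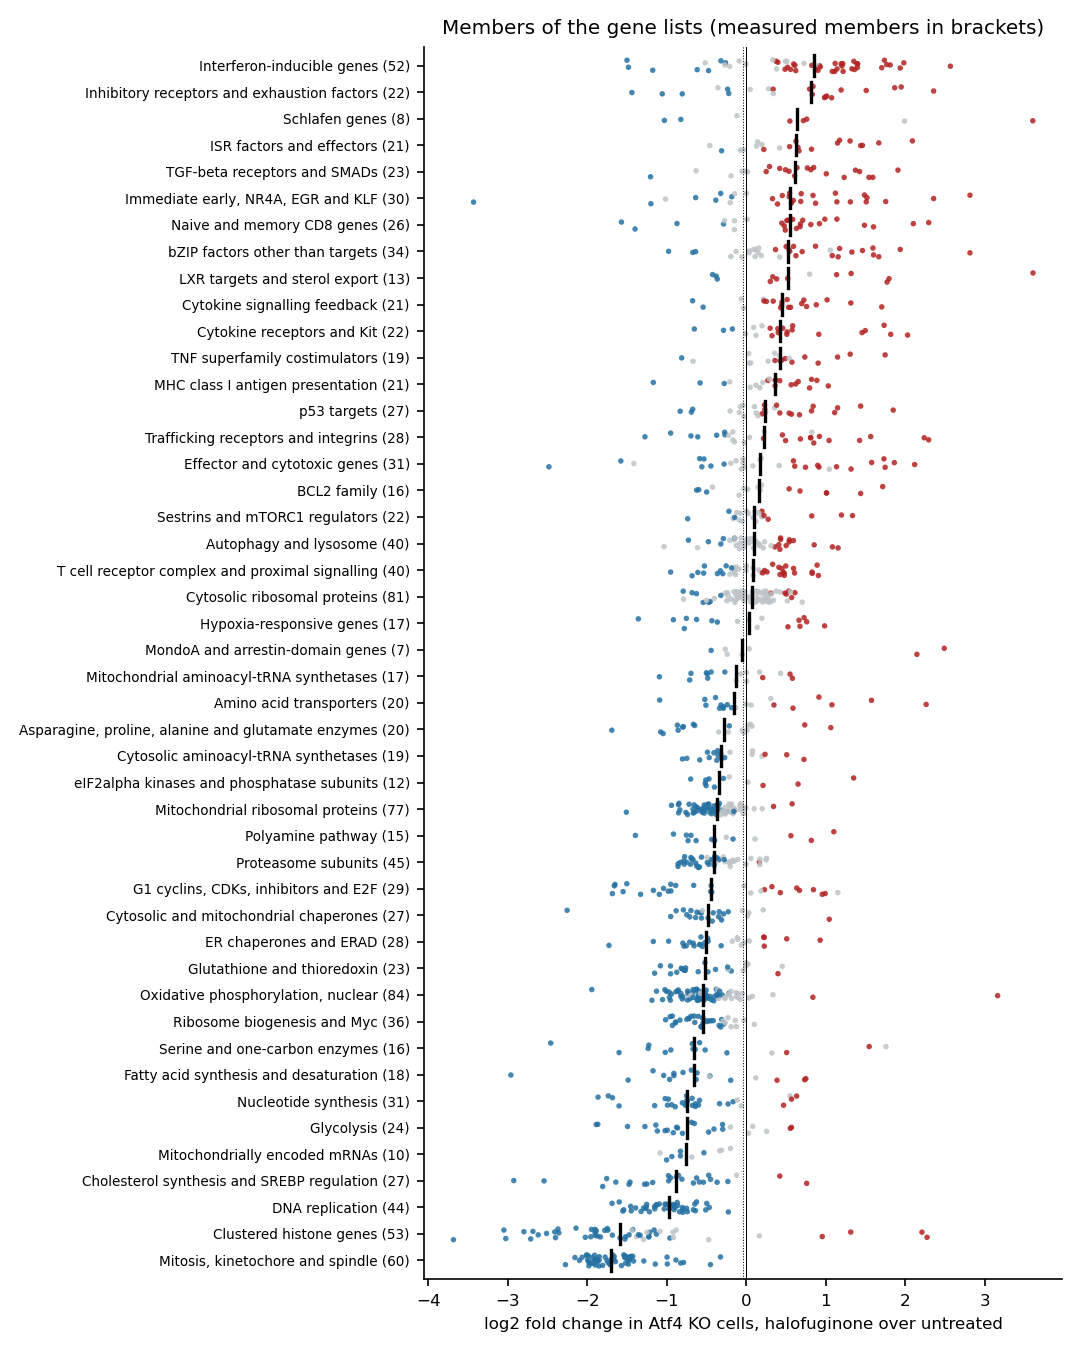
Log2 fold change of halofuginone-treated over untreated Atf4 KO cells (x axis) for the measured members of 46 gene lists (y axis, number of members in brackets), 1 point a gene. Red points were called higher, blue points lower, grey points were not called, black bars are list medians, and the dotted line is the median of all genes. Mitosis genes lie lowest, at a median of -1.70, and interferon-inducible genes highest, at 0.85.

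The difference between the responses of Atf4 KO and Rosa26 cells was called for 943 of 14695 genes (6.42%): 354 (2.41%) with a more positive and 589 (4.01%) with a more negative response in Atf4 KO cells. This balance differed between analyses. It was 705 positive and 489 negative under RLE factors and 494 and 743 under upper-quartile factors, in the same test. It was 896 and 612 under DESeq2, which differs in test and factors, and 801 and 498 when genes under 1 CPM were left out. Without halofuginone replicate 3 of Atf4 KO and replicate 2 of Rosa26 cells, the libraries with the lowest TEC share, 586 were positive and 1112 negative. TEC shares differed between genotypes before treatment as well, at 0.194% to 0.250% in untreated Atf4 KO libraries and 0.09997% to 0.133% in untreated Rosa26 libraries, and their part in the interaction was not tested. Of the 7294 genes called in Atf4 KO cells, 6514 had no called interaction. In 79 genes the responses were both called and opposite, 51 of them lower in Atf4 KO and higher in Rosa26 cells and 28 the reverse.

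**Figure D5:**
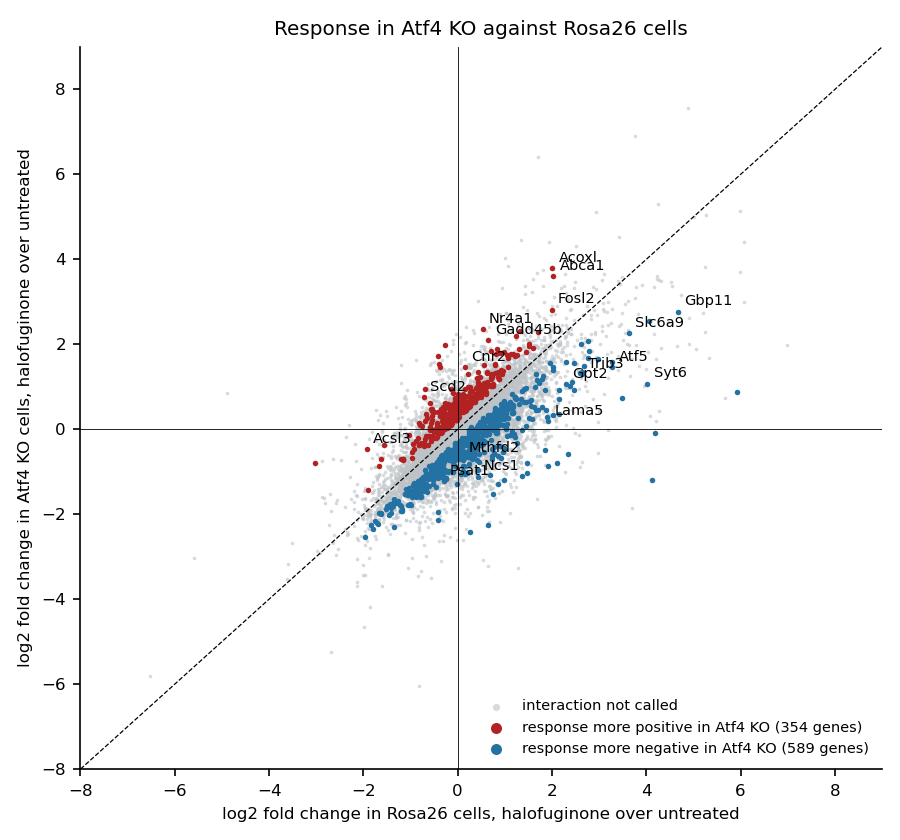
Log2 fold change, halofuginone over untreated, in Atf4 KO cells (y axis) against Rosa26 cells (x axis), 1 point a gene. The dashed line marks equal responses, red points a called interaction with a more positive response in Atf4 KO cells (354 genes) and blue points a more negative one (589 genes). Scd2 lies in the upper left quadrant and Ncs1 in the lower right.

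The 8 most positive interactions at that level were those of Nr4a1, Acoxl, Abca1, Acsl3, Scd2 and Gadd45b, with Cnr2 and Serpinb6b. Acoxl, an acyl-CoA oxidase relative, had 11.5, 11.2 and 12.8 CPM with halofuginone and 0.739, 0.866 and 0.927 CPM without in Atf4 KO cells (3.80 ± 0.26), and 4.02, 5.84 and 4.42 CPM against 1.501, 0.897 and 1.12 CPM in Rosa26 cells (interaction 1.79 ± 0.38). The cannabinoid receptor gene Cnr2 had 13.9, 13.9 and 13.7 CPM against 4.99, 5.25 and 4.77 CPM (1.47 ± 0.15) and did not pass the test in Rosa26 cells, at 5.76, 7.89 and 6.04 CPM against 7.09, 5.02 and 5.50 CPM (interaction 1.31 ± 0.22). Both genes were thus highest in treated Atf4 KO libraries. Serpinb6b, a protease inhibitor gene, overlapped between treated and untreated Atf4 KO libraries (9.89, 9.67 and 18.1 CPM with halofuginone against 9.74, 7.39 and 7.55 CPM without), its high value was that of replicate 3, and its log2 fold change of 0.61 ± 0.19 lost the call without that library (0.30, adjusted p = 0.085), without untreated replicate 2 (0.54, adjusted p = 0.051) and with only the compared libraries in the fit (0.62, adjusted p = 0.064). Its interaction was 1.1975 ± 0.26.

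The 8 most negative were those of Syt6, Gbp11, Atf5, Lama5, Angptl6, Ncs1, Dtx1 and Src. In several of them the genotypes differed before treatment. The laminin gene Lama5 had 15.9, 17.0 and 12.5 CPM with halofuginone and 12.7, 13.4 and 13.6 CPM without in Atf4 KO cells (0.19 ± 0.13, adjusted p = 0.23; 0.36, adjusted p = 0.021, without halofuginone replicate 3), and 16.2, 15.7 and 15.8 CPM against 3.96, 3.77 and 4.88 CPM in Rosa26 cells (interaction -1.72 ± 0.20). Treated levels of Lama5 were close in range between the genotypes, and untreated levels were higher in Atf4 KO cells. Syt6 was higher in Atf4 KO cells in both states, at 6.39, 6.12 and 5.19 CPM against 1.79, 3.75 and 2.85 CPM in Atf4 KO cells and 1.99, 3.23 and 2.80 CPM against 0, 0.299 and 0.168 CPM in Rosa26 cells (interaction -2.95 ± 0.65), with untreated Rosa26 libraries at or near 0. Its response in Atf4 KO cells was 1.07 ± 0.35, and it lost the call without untreated replicate 1 (0.83, adjusted p = 0.086). Dtx1 (interaction -1.54 ± 0.35) and Src (interaction -1.51 ± 0.41, not called in 6 of 19 alternatives) had untreated levels of 2.78 ± 0.774 and 1.32 ± 0.0799 CPM in Atf4 KO cells and 0.664 ± 0.0592 and 0.291 ± 0.107 CPM in Rosa26 cells (mean ± SD, n = 3).

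By contrast, untreated levels of Angptl6 were close, at 4.31, 3.69 and 3.97 CPM in Atf4 KO cells and 3.48, 3.83 and 3.31 CPM in Rosa26 cells, while treated levels were 11.5, 11.2 and 13.3 CPM in Atf4 KO cells and 32.4, 36.1 and 34.5 CPM in Rosa26 cells (interaction -1.69 ± 0.20). Gbp11, an interferon-inducible GTPase gene whose reads may be shared with Gbp10, had 70.8, 81.0 and 65.1 CPM against 9.31, 8.31 and 14.4 CPM in Atf4 KO cells (2.77 ± 0.17) and an interaction of -1.90 ± 0.26. The calcium sensor gene Ncs1 moved in opposite directions, at 3.93, 2.62 and 3.94 CPM with halofuginone and 7.46, 8.37 and 6.96 CPM without in Atf4 KO cells (-1.12 ± 0.18) and 7.46, 6.02 and 8.34 CPM against 5.10, 4.61 and 6.51 CPM in Rosa26 cells (0.43 ± 0.17, adjusted p = 0.0498; interaction -1.54 ± 0.25).

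Among the remaining lists, of 40 autophagy and lysosome genes 12 rose and 5 fell, of 28 trafficking receptors and integrins 13 rose and 7 fell, of 8 Schlafen genes 4 rose and 2 fell, and of 15 polyamine genes 10 fell and 3 rose. The ornithine decarboxylase gene Odc1 fell by 0.92 and the methionine adenosyltransferase gene Mat2a by 0.75 on the log2 scale, while the spermine oxidase gene Smox had 16.6, 13.6 and 21.7 CPM with halofuginone and 9.12, 8.14 and 6.89 CPM without (1.10 ± 0.18).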

How the data were processed

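The deposited values were raw counts per gene in 1 table of 18 libraries, per the file headers. Per the labels, poly-A RNA was primed with random hexamers and made into directional dUTP libraries. Per the submitters' processing notes, FastQC, MultiQC, Trimmomatic, STAR, HTSeq and edgeR were used with GRCm39; the sources used here give no versions, annotation or strand setting of the counting, so that overlapping and antisense genes cannot be told apart. Of 14695 genes, 449 had a blank name, and 431 of these were filled from a table of gene identifiers. Totals were 14738700 to 18008900 counts in the 6 Atf4 KO libraries, and 3 counts, the limit that a count of 0 allows, correspond to 0.173 to 0.199 CPM, for counting error only.

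All 18 libraries were fitted together in edgeR 4.0.16 (R 4.3.3, limma 3.58.1) with TMM scaling, 6 group terms and robust quasi-likelihood tests, and p-values were adjusted by Benjamini-Hochberg over all genes. Errors of log2 fold changes, given as SE, were derived from the test. Each is the absolute log2 fold change divided by the square root of the F statistic. They are approximate and can fail at low counts. For Sdc4 the interaction had 0.10, against 0.40 and 0.52 for the responses in Atf4 KO and Rosa26 cells. The interaction is the response in Atf4 KO cells minus that in Rosa26 cells. The fit was tested on simulated counts for the response in Atf4 KO cells over 14695 genes with 200 changed. Of changes of 1 on the log2 scale 63% were recovered and of changes of 0.5 33%, and for the interaction 58% and 10%. Changes were placed in the treated Atf4 KO group alone, balanced in direction, and all else had equal means between groups. In the data 49.6% of genes were called, so these rates need not hold there. Same-numbered Atf4 KO libraries did not deviate together (correlations of -0.13, -0.02 and -0.26), so the numbers were not used as pairs. Same-numbered Rosa26 libraries had correlations of 0.01, 0.22 and 0.18, and differently numbered ones -0.21 to 0.16. A replicate block was therefore kept among the alternatives below.

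The members and gene lists were chosen with earlier results of these data known. Genes were named by rule: Atf4 and Cebpg; the 15 highest and 15 lowest fold changes with at least 5 CPM in a group, no overlap between groups and no predicted gene name; the 10 most abundant genes changed at least 2-fold; in each list the 4 smallest p-values and the largest change in the other direction; and the 8 most positive and 8 most negative interactions. Members of these sets are named in part, some of them are not reported here, and other genes given with an interaction were chosen after their values were seen. Alternatives were RLE and upper-quartile scaling, DESeq2 1.42.0, a filter of 1 CPM in 3 libraries, only the compared libraries, a replicate block, and leaving out each library. Promoters came from RefSeq (GRCm38.p6); coordinates on GRCm39 were not used here.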

Additional observations from a re-analysis of the deposited data

Results flagged for a closer look

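The difference between the halofuginone responses of Atf4 KO and Rosa26 cells was tested for every gene as the interaction term. The genes below are those given with its value in the report. Their responses differed at an adjusted p under 0.05 (edgeR quasi-likelihood test). Each value is the log2 response in Atf4 KO cells minus that in Rosa26 cells.

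More positive responses in Atf4 KO cells were those of Nr4a1 (1.83), Acoxl (1.79), Abca1 (1.58), Acsl3 (1.47), Scd2 (1.46), Gadd45b (1.44), Cnr2 (1.31), Serpinb6b (1.1975), Mylip (0.89), Fosl2 (0.82), Ccng2 (0.77), Dusp4 (0.73), Pfkfb3 (0.64), Tcf7 (0.63), Abcg1 (0.60), Hspa4l (0.57), Tgfbr2 (0.53), Sesn3 (0.41), Smad7 (0.41) and Mcl1 (0.40).

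More negative responses in Atf4 KO cells were those of Slc38a2 (-0.35), Uhrf1 (-0.43), Rrm1 (-0.45), Dnmt1 (-0.48), Clspn (-0.49), Txnrd1 (-0.49), Aars1 (-0.49), Cebpg (-0.54), Nt5e (-0.60), Slc43a3 (-0.61), Nars1 (-0.61), Atp5g1 (-0.65), Xbp1 (-0.66), Tk1 (-0.69), Bcat1 (-0.71), Slc1a4 (-0.71), Mthfd2 (-0.77), Plk2 (-0.93), Psat1 (-0.93), Asns (-1.002), Ddit3 (-1.09), Gpt2 (-1.23), Trib3 (-1.33), Slc6a9 (-1.36), Src (-1.51), Dtx1 (-1.54), Ncs1 (-1.54), Angptl6 (-1.69), Lama5 (-1.72), Atf5 (-1.82), Gbp11 (-1.90) and Syt6 (-2.95).

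Of these 52 differences, 46 were called under each of the 19 alternatives of the interaction. Those of Abca1, Smad7, Mcl1, Slc1a4, Ddit3 and Src were not, with adjusted p up to 0.12, 0.078, 0.085, 0.11, 0.11 and 0.11 in that order. The 52 were chosen in part after their values were seen. Among all 193 genes followed through the alternatives, 81 had a called interaction, and 27 of these lost the call in at least 1 alternative. Plk1, Rrm2, Skil and Klf10, whose interactions are not given above, were among the 27.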

How the results depend on the processing

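The counts of the response in Atf4 KO cells stayed within 1.5 times the reported ones under each alternative, at 3046 to 3608 genes higher and 3423 to 3993 lower when 1 library was left out, 836 to 1028 higher and 826 to 936 lower by at least 2-fold. The interaction was less stable. The 354 positive calls became 705 under RLE factors, 896 under DESeq2, 801 with the 1 CPM filter, 494 under upper-quartile factors and 225 with only the compared libraries, and the 589 negative calls became 743 under upper-quartile factors and 392 with only the compared libraries. Leaving out 1 library gave 225 to 829 positive and 404 to 700 negative calls; they were 779 and 700 without halofuginone replicate 3 of Atf4 KO cells, and 829 and 627 without halofuginone replicate 2 of Rosa26 cells. Without both, an alternative chosen after seeing the data, they were 586 and 1112. The cause was not tested. The log2 fold change of Asns lay near 0 and ran from -0.0333 to 0.0826 when 1 library was left out, lowest without untreated replicate 1 and also below 0 without untreated replicate 3 (-0.00511) and halofuginone replicate 3 (-0.00729); it was -0.0167 without both libraries named above. Lama5 (0.36) and Acsl3 (-0.58) passed the test without halofuginone replicate 3. Atf4 passed it under upper-quartile scaling (0.20, adjusted p = 0.030) and without halofuginone replicate 2 (0.25, adjusted p = 0.038). With the replicate block, 3299 genes were higher and 3790 lower, and the interaction had 290 positive and 493 negative calls; the numbers were not shown to pair the samples. DESeq2 gave 11276 genes an adjusted p for the interaction.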
